A study of Mus musculus with 4 samples.

Results

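The genes described here are 8 members of the sterol programme: Hmgcs1, Idi1, Fdps, Sqle, Lss, Cyp51, Dhcr7 and Insig1. They were taken by symbol from the 25965 genes of the deposited expression table. All 8 had a value in each of the 4 libraries, and all 8 were among the 13264 genes kept for a mean of at least 0 on the log2 CPM scale (log2 of reads per 1000000 reads assigned to genes). The 7 genes other than Insig1 encode enzymes of cholesterol synthesis and Insig1 encodes a sterol sensor, so that no member encodes an uptake receptor, and uptake genes are given beside them from a separate list.

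The cells were female F1 mouse embryonic stem cells from FVB dams and CAST sires, and they were followed as they differentiated, with or without knockdown of Smarca4, an ATPase of the BAF chromatin remodelling complex. One library was made from cells at day 0, expanded in 2i medium (kinase inhibitors that hold the cells in naive pluripotency) with LIF. The other 3 came from day 6, after weaning into serum-containing medium, retroviral delivery of a short hairpin RNA at day 2 and puromycin selection from day 3. Of these, one carried the non-silencing hairpin (Nons), one the hairpin Smarca4.4 and one the hairpin Smarca4.6. Day 0 cells had met neither virus nor puromycin, so that differentiation, the change of medium, transduction and selection cannot be told apart in the comparison of Nons day 6 with day 0. The genotype field names a Smarcc knockdown for each library of day 6, also for Nons, and a non-silencing control for day 0. The titles contradict it, and groups were taken from the titles. Each group was 1 library, all carrying replicate number 3, so no comparison has a replicate check and no p-value is given. The intervals below are 95% intervals from read counts and cover counting error only. The share of all genes kept that differed by more than counting error was not counted. Counts of genes beyond counting error therefore have no such share beside them.

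The libraries held 18599401 reads at day 0 and between 36495575 and 47143738 at day 6. Smarca4 was at 7.93 at day 0, 7.84 with the Nons hairpin, 7.04 with Smarca4.4 and 7.44 with Smarca4.6 on the log2 CPM scale, which put the 2 hairpin libraries at 57.3% and 75.8% of Nons. The summed level of 7 pluripotency markers was 3962 CPM at day 0 and 812 to 1081 CPM at day 6. Most of the day 6 sum was Pou5f1, at 724 CPM at day 0 and 701 to 982 CPM at day 6, and the sum of the other 6 was 3238 CPM at day 0 and 99.7 to 121 CPM at day 6. The summed level of 5 smooth muscle and mesenchymal markers was 3.43 CPM at day 0 and 1133, 855 and 735 CPM with Nons, Smarca4.4 and Smarca4.6. Most of each day 6 sum was Tagln, at 852, 637 and 538 CPM. With Smarca4.4 and Smarca4.6, Acta2 differed from Nons by -1.03 and -1.83 on the log2 scale, and Cnn1 by -0.34 and -0.38. Myl9 differed by -0.027 and -0.063 and Col1a1 by 0.11 and -0.22. The intervals of both Myl9 values and of the first Col1a1 value included 0. For 6 visceral endoderm and liver markers the sum was between 0.516 and 2.31 CPM, with Alb and Ttr at 0 in every library. In such bulk libraries fewer cells of a type and less RNA per cell cannot be told apart, and the part that a change in cell make-up played in the values below was not tested.

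Cholesterol is built from acetyl-CoA. Hmgcs1 makes HMG-CoA, the precursor of mevalonate. Idi1 isomerises the isoprenoid unit derived from mevalonate, and Fdps joins such units into farnesyl diphosphate, the branch point towards sterols, dolichol, ubiquinone and prenylated proteins. After squalene has formed, Sqle oxidises it, Lss closes the ring system to give lanosterol, Cyp51 removes a methyl group from lanosterol, and Dhcr7 carries out a last reduction to cholesterol. Transcription of these genes is driven mainly by SREBP2, the product of Srebf2. When sterols are plentiful, INSIG proteins hold the SREBP escort protein SCAP in the endoplasmic reticulum. Insig1 is itself an SREBP target. Serum lipoproteins are a second source of cholesterol for cells.

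Promoter sequences from RefSeq (GRCm38.p6, the assembly also called mm10) were found for 6 of the 8 members. Those of Hmgcs1, the most abundant member at day 6, and of Insig1 and Dhcr7, the members that differed most between day 0 and day 6, are shown 5′ to 3′ on the strand of the gene. Each stretch ends at the base before the first annotated start of its gene. The windows are chr13:119690101-119690350 for Hmgcs1, chr5:28071162-28071362 for Insig1 and chr7:143822917-143823144 for Dhcr7, all on the plus strand. Capitals mark matches, on either strand, to the sterol regulatory element TCACNCCAC, which SREBP proteins bind, and to the CCAAT box (ATTGG on the other strand), which NF-Y binds.
Hmgcs1: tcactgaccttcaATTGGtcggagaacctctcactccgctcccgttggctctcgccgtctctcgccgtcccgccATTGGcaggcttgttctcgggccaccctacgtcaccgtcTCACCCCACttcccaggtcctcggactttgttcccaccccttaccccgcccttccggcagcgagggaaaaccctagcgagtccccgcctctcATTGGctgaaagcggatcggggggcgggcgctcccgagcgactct
Insig1: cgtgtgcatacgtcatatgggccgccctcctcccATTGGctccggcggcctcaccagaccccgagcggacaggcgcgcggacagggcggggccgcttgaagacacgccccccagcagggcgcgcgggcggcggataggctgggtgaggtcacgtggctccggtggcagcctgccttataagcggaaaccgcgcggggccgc
Dhcr7: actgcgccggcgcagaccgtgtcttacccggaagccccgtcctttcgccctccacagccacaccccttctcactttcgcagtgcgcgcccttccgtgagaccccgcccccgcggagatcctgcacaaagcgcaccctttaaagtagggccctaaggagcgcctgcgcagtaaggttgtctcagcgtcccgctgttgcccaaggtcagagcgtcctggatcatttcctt
In windows of 250 bases before to 50 bases after the start, the letters TCACNCCAC occurred on either strand in 1.22% of 27025 genes and in 1 of the 6 member windows. That match was TCACCCCAC in Hmgcs1, which began 137 bases before the start. The shorter form TCACNCNA, which overlaps the longer one, was found in 11.1% of all windows and, among the 6 members, at the same Hmgcs1 site alone. CCAAT was present in 37.9% of all windows and in 5 of the 6, Dhcr7 being the exception, with 4 copies in the Hmgcs1 window, of which 1 lies after the start. The GC box GGGCGG was present in 35.9% of all windows and in 6 of the 6. A match of letters is not a measured binding site, and a window without a match says nothing about the factor. Dhcr7 has 3 windows in the RefSeq table and 1 was searched.

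From day 0 to day 6 in the non-silencing control, 6 of the 8 genes were lower and 2 were higher, each by more than counting error. Of all genes kept, 51.4% were higher. Dhcr7 and Insig1 were 3.25-fold and 3.20-fold lower. Sqle, Lss, Cyp51 and Fdps were lower by 1.34-fold to 1.49-fold. Hmgcs1 and Idi1, which both act before squalene, were 1.67-fold and 1.73-fold higher. The median difference of the 8 genes was -0.51 on the log2 scale, against 0.031 for all genes kept. At least 2-fold lower were 2 of the 8, beside 12.3% of all genes kept, and 0 of the 8 were at least 2-fold higher, beside 19.6%.

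**Figure D1:**
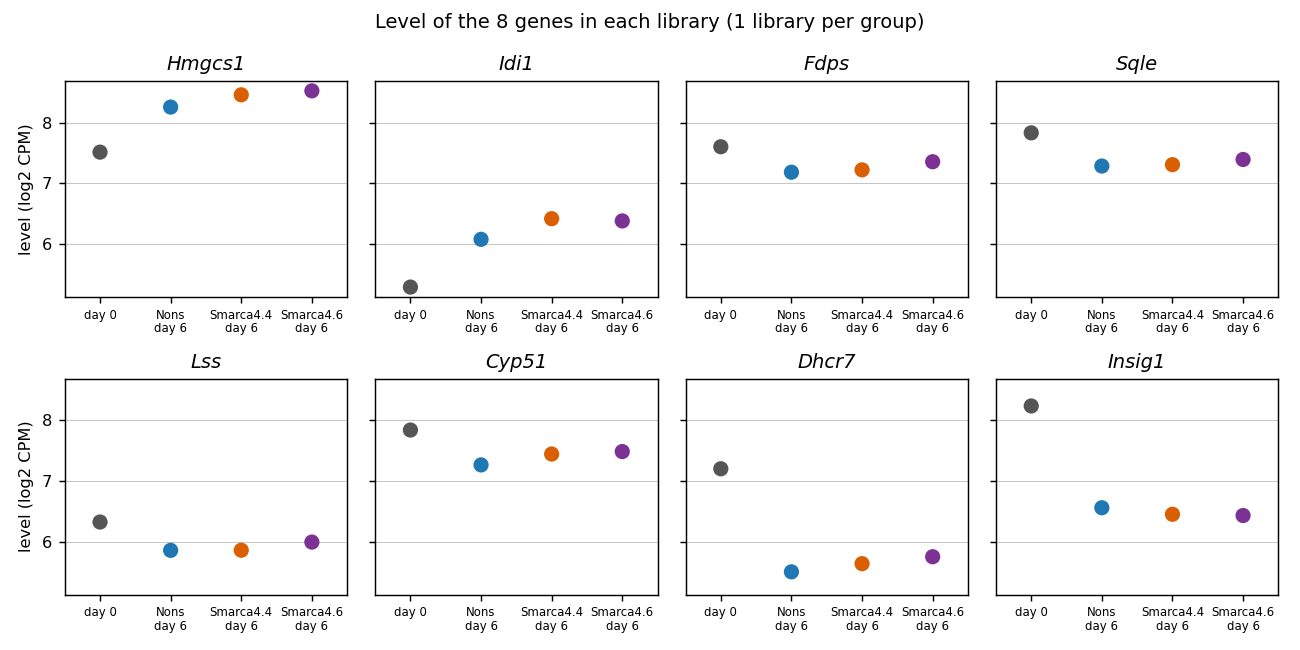
The level of each of the 8 genes (log2 CPM, vertical axis) in the day 0 library and the 3 day 6 libraries, 1 point per library. Hmgcs1 and Idi1 lie lowest at day 0, the other 6 genes lie highest at day 0, and the 3 day 6 libraries lie within 0.34 of each other for every gene.

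Hmgcs1 (chr13:119690462-119708086, plus strand), the enzyme that supplies HMG-CoA, was at 7.51 at day 0, 8.26 with Nons, 8.46 with Smarca4.4 and 8.53 with Smarca4.6 on the log2 CPM scale. Day 0 was the low library and all day 6 libraries were above it. The difference of Nons from day 0 was 0.74 (0.69 to 0.80).
Idi1 (chr13:8885501-8892451, plus strand), the isomerase, was at 5.29, 6.08, 6.42 and 6.38 in the same order. It too was lowest at day 0, with a difference of 0.79 (0.67 to 0.91) for Nons, and both Smarca4 libraries stood above Nons. Hmgcs1 and Idi1 are on the same chromosome, where the median difference of 482 genes kept was -0.079, so that both lay above the median of their chromosome.

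Fdps (chr3:89093592-89101967, minus strand), at the isoprenoid branch point, was at 7.60 at day 0, 7.18 with Nons, 7.22 with Smarca4.4 and 7.36 with Smarca4.6. The day 0 library was the highest and the Nons library the lowest, with a difference of -0.42 (-0.48 to -0.36). Of the 3 members before squalene, Fdps was thus the one that was lower at day 6.

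The members after squalene were all highest at day 0. Sqle (chr15:59315077-59331192, plus strand), a rate-limiting oxidase, was at 7.83 at day 0 and at 7.29, 7.31 and 7.39 for Nons, Smarca4.4 and Smarca4.6, and its difference between Nons and day 0 was -0.55 (-0.60 to -0.49).
Lss (chr10:76531588-76557138, plus strand), the cyclase, was at 6.32, 5.86, 5.86 and 5.99, with a difference of -0.47 (-0.56 to -0.37). Cyp51 (chr5:4081145-4104746, minus strand), the lanosterol demethylase, was at 7.84, 7.27, 7.45 and 7.49, with a difference of -0.58 (-0.63 to -0.52).
These differences of Sqle, Lss and Cyp51 lay within 0.11 of each other, while Dhcr7 stood apart. Dhcr7 (chr7:143823145-143848410, plus strand), the last reductase, was at 7.20 at day 0, 5.50 with Nons, 5.64 with Smarca4.4 and 5.75 with Smarca4.6. Its difference of -1.70 (-1.78 to -1.62) was lower than that of 94.4% of the genes kept.

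Insig1 (chr5:28071363-28078662, plus strand), the sensor, was at 8.24 at day 0, the highest of any member in that library, per kilobase as well, and at 6.56 with Nons, 6.45 with Smarca4.4 and 6.43 with Smarca4.6. The difference between Nons and day 0 was -1.68 (-1.74 to -1.62), close to that of Dhcr7. Insig2, the related sensor that is not driven by SREBP in the same way, was at 4.63 at day 0 and 4.83 in Nons, a difference of 0.20.

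**Figure D2:**
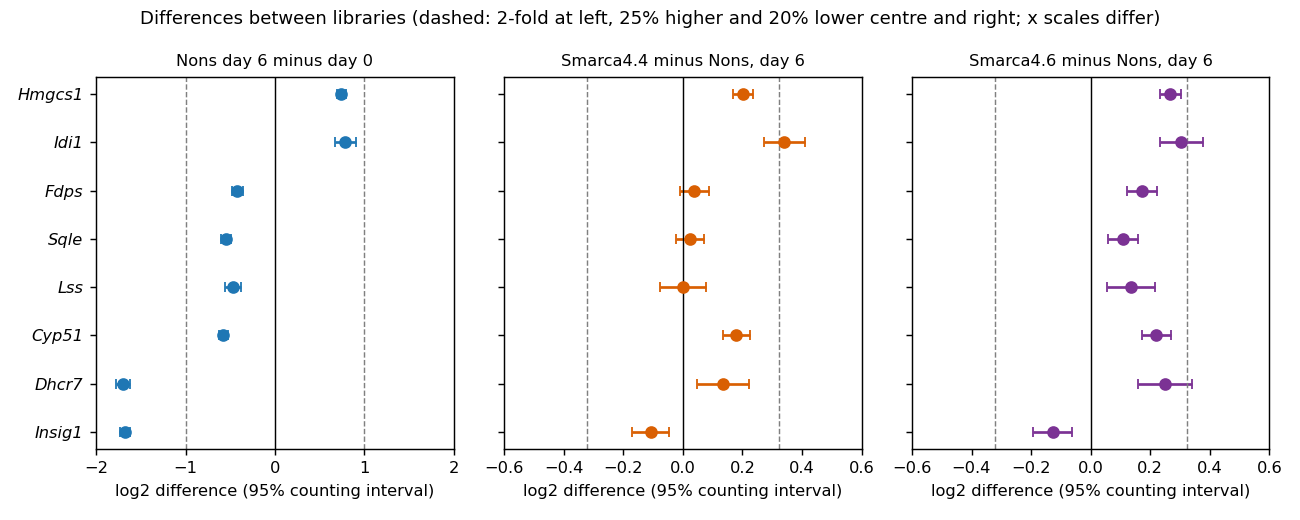
The log2 difference of each of the 8 genes (horizontal axis) for Nons day 6 against day 0 and for each Smarca4 hairpin against Nons, with bars for the 95% counting interval and dashed lines at 2-fold (left panel) or at 25% higher and 20% lower (other panels). Dhcr7 and Insig1 pass the 2-fold line on the left, and Idi1 with Smarca4.4 is the single point past a dashed line in the other panels.

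The make-up of the sterol transcripts therefore differed between the time points. The summed level of the 8 genes was 1403 CPM at day 0, 1027 with Nons, 1115 with Smarca4.4 and 1167 with Smarca4.6. Insig1 held 21.5% of the summed reads at day 0 (21.02% to 22.03%, exact binomial interval) and 9.19% in Nons (8.93% to 9.45%). Hmgcs1 went the other way, with 13.03% at day 0 (12.6% to 13.4%) and 29.8% in Nons (29.4% to 30.2%). Dhcr7 held 10.5% at day 0 and 4.41% in Nons, and Idi1 held 2.79% and 6.57%. The shares of Fdps (13.9% and 14.2%) and Lss (5.71% and 5.65%) moved little. In the 2 Smarca4 libraries the shares of Hmgcs1 were both 31.6% and those of Insig1 were 7.85% and 7.39%, nearer to Nons than to day 0.

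**Figure D3:**
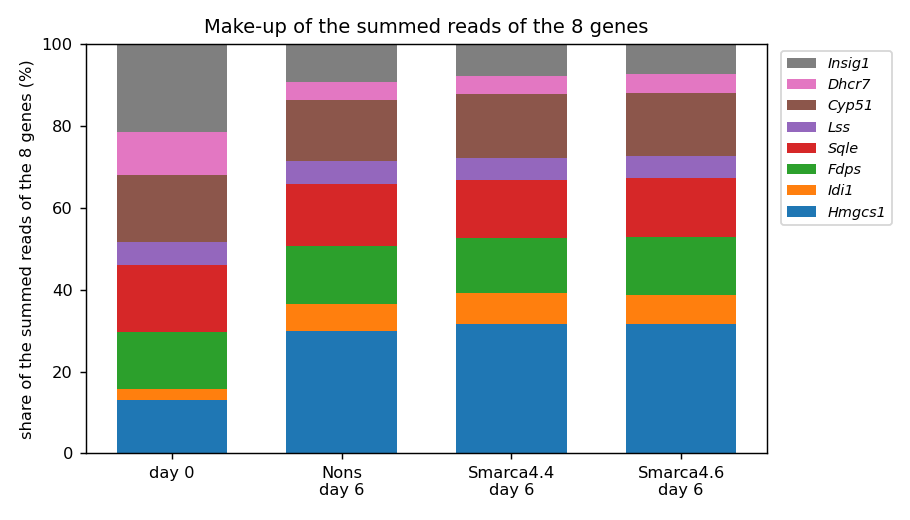
The share of each gene in the summed reads of the 8 genes (vertical axis, percent, stacked to the full height) for each library. At day 0 Insig1 is the largest part with 21.5%, and in the 3 day 6 libraries Hmgcs1 is the largest with 29.8% to 31.6%.

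To compare genes with each other, levels were divided by the length of the longest annotated transcript (CPM per kilobase). At day 0 Insig1 was highest at 112.0, followed by Fdps at 65.9 and Cyp51 at 58.4. Hmgcs1, Dhcr7 and Sqle followed at 52.8, 52.3 and 51.1, and each had a counting interval that overlapped that of its neighbour. Idi1 at 12.9 and Lss at 11.5 were lowest, also with overlapping intervals.
In Nons the order was headed by Hmgcs1 at 88.4 CPM per kilobase, followed by Fdps at 49.2 and Cyp51 at 39.2. Insig1 and Sqle were level at 34.97 and 34.9, and Idi1 at 22.3, Dhcr7 at 16.1 and Lss at 8.29 came last, in that order. Dhcr7 thus passed from among the middle genes to below Idi1. In both Smarca4 libraries the order was that of Nons but for Sqle (35.5 and 37.7), which stood above Insig1 (32.5 and 32.0) beyond their intervals. These orders depend on the length used, 6992 bases for Lss, and which transcripts the cells made was not tested. Before division by length, Lss was above Idi1 at day 0 (80.1 and 39.1 CPM) and above Dhcr7 in Nons (58.0 and 45.3 CPM).

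Set among the other 14 enzymes of cholesterol synthesis, Hmgcs1 and Idi1 were the exceptions. All 14 were lower in Nons at day 6 than at day 0, with a median difference of -0.68. At least 2-fold lower were 5 of them, beside 12.3% of all genes kept. Including the members, 19 of the 21 enzymes were lower, whereas 51.4% of all genes kept were higher. Mvk, the mevalonate kinase, differed least, by -0.18. The difference farthest from 0 was that of Ebp, the sterol isomerase, at -4.09, and Nsdhl, a sterol dehydrogenase, differed by -2.20. Both are X-linked, and the median over 498 X-linked genes kept was -0.66 in this comparison, whose part in these values was not tested. All 12 enzymes that act after squalene were lower, and 7 of the 9 that act before it.

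**Figure D4:**
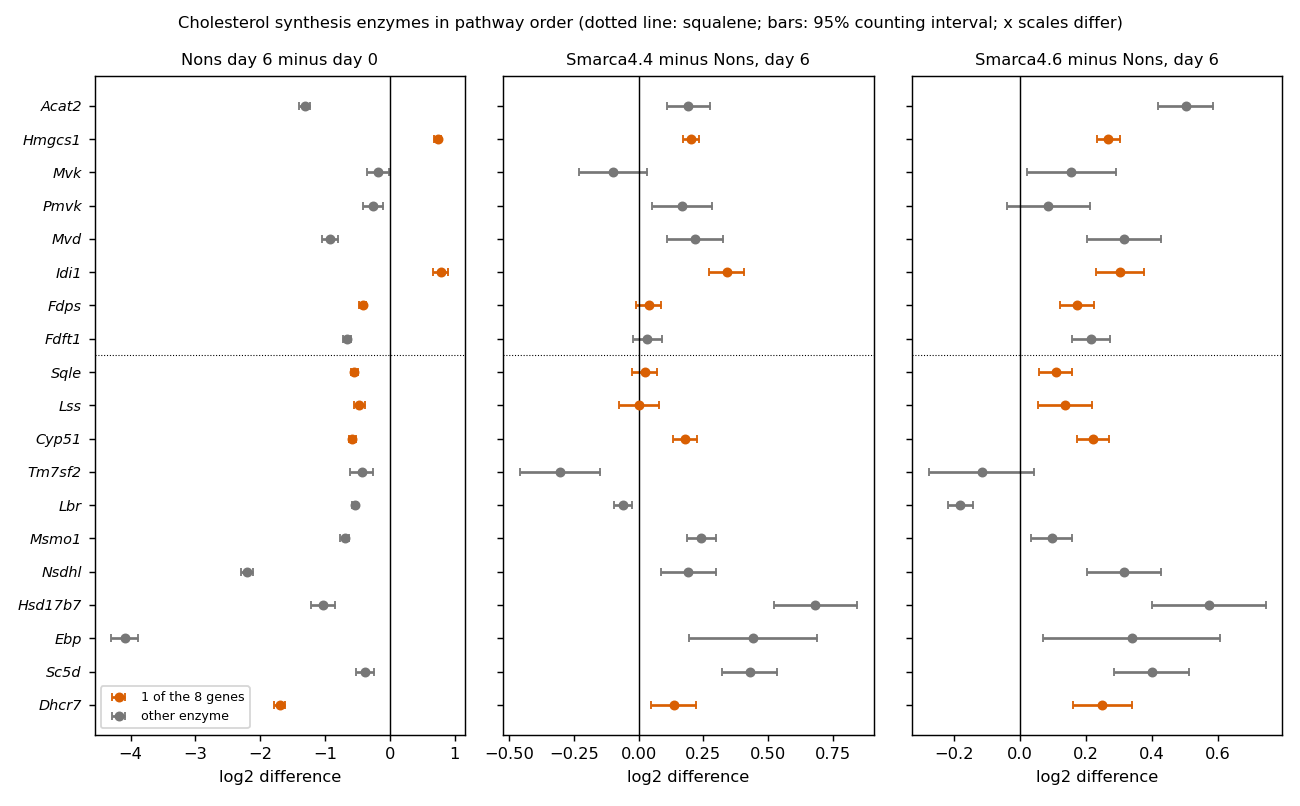
Cholesterol synthesis enzymes, 19 of the 21 (the other 2 are not reported here), from top to bottom in pathway order, with the log2 difference (horizontal axis, scales differ) and its 95% counting interval for Nons day 6 against day 0 and for each Smarca4 hairpin against Nons. In the left panel Hmgcs1 and Idi1 are the 2 points to the right of 0, and Ebp at -4.09 lies farthest to the left.

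Of the 11 genes of uptake and transport, 7 were lower and 4 higher in Nons than at day 0, with a median of -0.70. Lysosomal release was mixed: Lipa and Npc1 were higher by 1.00 and 0.64, whereas Npc2 differed by -0.96.
Among 10 genes of sterol sensing and related turnover the median was -0.021. Srebf2 differed by -0.10 (8.38 to 8.28), whereas Srebf1 differed by -1.07 and Scap by -1.21, the lowest of that list. Mbtps2, the X-linked protease that releases SREBP, differed by -0.93. The level of Srebf2 mRNA does not measure how much SREBP2 is processed.

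Of the 7 genes of efflux, storage and LXR signalling, 6 were kept, and their median was -0.13, or 0.059 with the stricter filter (a mean of at least 3 log2 CPM). Abca1, the cholesterol exporter, was at 4.62 at day 0 and 0.29 in Nons, a difference of -4.33, and Soat1, which esterifies cholesterol for storage, was higher by 1.47. The isoprenoid branch beyond Fdps had a median of 0.069 over 9 genes, between Pdss1 at -1.30 and Coq2 at 1.32, both of which serve ubiquinone synthesis. Fatty acid synthesis differed most, with 10 of 10 genes lower and a median of -1.91. At least 2-fold lower were 9 of them, beside 12.3% of all genes kept. Its values ran from Acaca, acetyl-CoA carboxylase, at -0.96 to Scd2, a desaturase, at -3.89, with Fasn, fatty acid synthase, at -2.08.

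**Figure D5:**
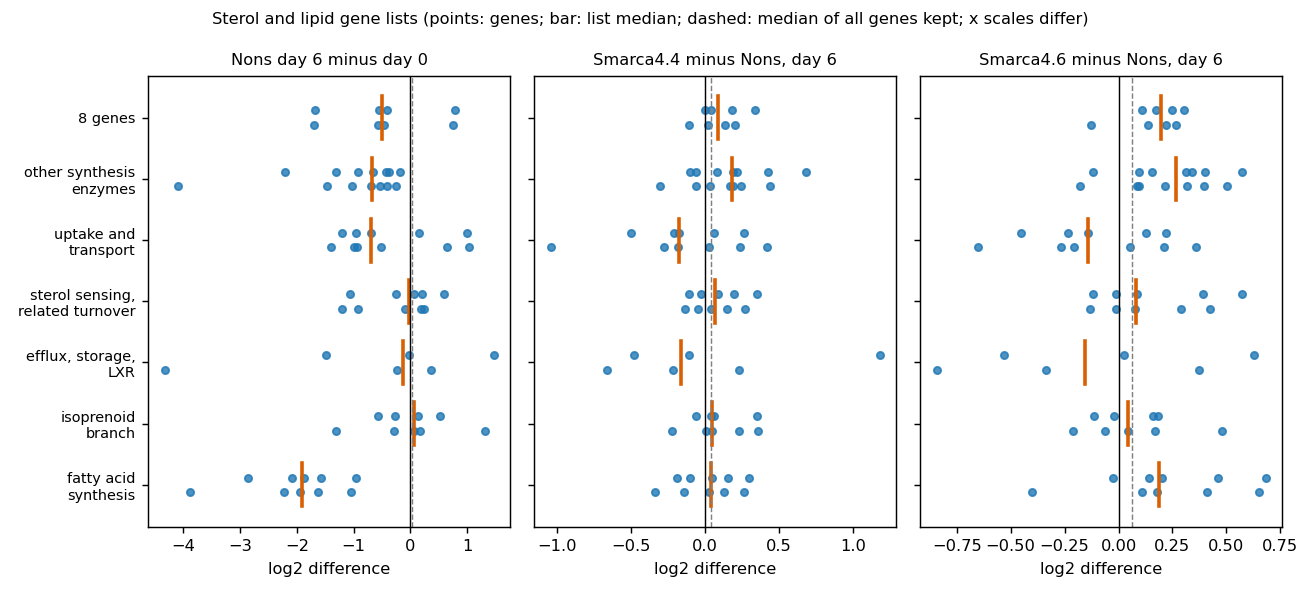
Log2 differences (horizontal axis, scales differ) for the 8 genes and 6 lists of sterol and lipid genes, 1 point per gene kept, with the median of each list as a bar and that of all genes kept as a dashed line. For Nons day 6 against day 0, fatty acid synthesis has the lowest median (-1.91), and all 14 other synthesis enzymes lie left of 0.

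With Smarca4 knockdown the 8 genes stayed near their level in Nons. With Smarca4.4, 7 of the 8 were nominally higher, beside 56.5% of all genes kept. The median difference was 0.087 against 0.038 for all genes kept. Hmgcs1, Idi1, Cyp51 and Dhcr7 were higher by more than counting error, and Insig1 was lower. For Fdps, Sqle and Lss the interval included 0, and after centring on the autosomal median Sqle and Lss took the opposite sign, so that 5 were above 0 and 3 below.
Among day 6 libraries a gene was counted when it was at least 25% higher (0.32 on the log2 scale) or at least 20% lower, the same fold inverted. Idi1 was the single member past it, at 0.34 (0.27 to 0.41). After centring on the autosomal median or the trimmed mean it was 0.31 or 0.30 and not past it. That is 1 of 8 as reported, beside 12.9% of all genes kept. On the lower side 0 of 8 passed, beside 9.51%. No member reached 2-fold in either direction, as 0.882% of all genes kept did upwards and 0.309% downwards.

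With Smarca4.6, 7 of the 8 were higher and Insig1 lower, here all 8 by more than counting error before centring. Of all genes kept, 58.9% were higher, and their share beyond counting error was not counted. After centring on the autosomal median 7 were still above 0 and 1 below. That median, 0.061, lay above the lower interval ends of Sqle (0.059) and Lss (0.055). The median difference was 0.20 against 0.064 for all genes kept. No member was past these limits, whereas 18.8% of all genes kept were at least 25% higher and 11.8% at least 20% lower, and none passed 2-fold, beside 1.03% and 0.799%. These shares do not set the members apart from other genes.

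By gene, Hmgcs1 differed from Nons by 0.20 (0.17 to 0.23) with Smarca4.4 and by 0.27 (0.23 to 0.30) with Smarca4.6. Idi1 differed by 0.34 and 0.30 (0.23 to 0.38). These were the highest values among the members in each hairpin library. With Smarca4.4 Idi1 stood above the others beyond its interval, while the interval of Hmgcs1 overlapped those of Cyp51 and Dhcr7. With Smarca4.6 the intervals of both genes overlapped those of Cyp51 and Dhcr7. The 2 comparisons share the Nons library, so that an unusual value there would enter both.
Cyp51 differed by 0.18 (0.13 to 0.23) and 0.22 (0.17 to 0.27), and Dhcr7 by 0.13 (0.05 to 0.22) and 0.25 (0.16 to 0.34). Fdps differed by 0.039 (-0.0098 to 0.087) and 0.17 (0.12 to 0.22), and Sqle by 0.023 (-0.024 to 0.070) and 0.11 (0.06 to 0.16). Lss differed by 0.0015 (-0.076 to 0.079) and 0.14 (0.05 to 0.22). Insig1 differed by -0.11 (-0.17 to -0.05) and -0.13 (-0.19 to -0.06). By these values the Smarca4.4 library was nearer to Nons than the Smarca4.6 library for every member but Idi1. The medians of all genes kept stood in the same order, at 0.038 and 0.064. For Cyp51, Idi1 and Insig1 the hairpin libraries did not differ from each other by more than counting error.

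Compared directly, Smarca4.4 was below Smarca4.6 for 6 of the 8 genes, with a median of -0.076 against -0.031 for all genes kept. Of all genes kept, 44.2% were higher with Smarca4.4, so most of them were lower too. The interval was below 0 for 5 of the 8, Hmgcs1, Sqle, Fdps, Lss and Dhcr7. The autosomal median, -0.0334, lay below the upper interval ends of Hmgcs1 (-0.0330) and Dhcr7 (-0.027). The values farthest from 0 were those of Fdps and Lss, each at -0.13. None was 25% higher or 20% lower, beside 8.46% and 9.38% of all genes kept.

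Of the 14 other synthesis enzymes, 10 were higher and 4 lower than Nons with Smarca4.4 (9 and 3 beyond counting error), and 12 were higher and 2 lower with Smarca4.6 (11 and 1). Of all genes kept, 56.5% and 58.9% were higher. The medians of the 14 were 0.18 and 0.27. At least 25% higher were 3 and 5 of them, beside 12.9% and 18.8% of all genes kept, and none was at least 20% lower. Hsd17b7, a sterol ketone reductase, was the highest in both, at 0.68 (0.52 to 0.84) and 0.57 (0.40 to 0.74), from 3.498 log2 CPM in Nons. Tm7sf2 was the lowest with Smarca4.4 at -0.30 and Lbr with Smarca4.6 at -0.18, and the products of both reduce the same double bond of the sterol ring.
The X-linked Ebp and Nsdhl were at 0.44 and 0.19 with Smarca4.4 and at 0.34 and 0.32 with Smarca4.6, beside X-linked medians of 0.19 and 0.14. Ebp was at 2.35 log2 CPM in Nons, and its intervals were 0.19 to 0.69 and 0.07 to 0.61.

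The uptake and transport genes lay below Nons by their median, at -0.17 with Smarca4.4 and -0.14 with Smarca4.6, with 6 of 11 lower in each. Npc2, a lysosomal cholesterol carrier, was below Nons with both hairpins, at -0.50 and -0.65. Mylip, a ubiquitin ligase, was above, at 0.42 (0.13 to 0.71) and 0.36 (0.05 to 0.67), from 1.88 log2 CPM in Nons.
The sensing genes had medians of 0.067 and 0.080. Srebf2 was at -0.13 and -0.12, Srebf1 at -0.11 and 0.076, Insig2 at -0.045 and -0.13, and Scap at 0.35 and 0.39. Mbtps2 was at 0.27 and -0.010.

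Efflux genes had medians of -0.16 and -0.15, the second of which was 0.027 with no filter. Abca1 was above Nons, at 1.18 (0.72 to 1.66) and 0.63 (0.10 to 1.16), from a low level. Apoe, a lipid carrier, was at -0.48 and -0.84. Abcg1, another exporter, was at -0.66 (-1.06 to -0.28) and -0.53 (-0.94 to -0.12), also from a low level. The isoprenoid branch was near 0 by its medians of 0.051 and 0.042, the second of which was -0.019 after centring on the autosomal median, with Pggt1b highest with Smarca4.4 at 0.36, Pdss1 highest with Smarca4.6 at 0.48, and Coq2 lowest with both at -0.23 and -0.21. For fatty acid synthesis the medians were 0.038 and 0.19. Fasn was at 0.27 and 0.68, Acaca at 0.30 and 0.46, Scd1 at -0.34 and 0.18, Scd2 at 0.13 and 0.65, and Me1, which supplies NADPH, at -0.10 and -0.40. In the direct comparison 9 of these 10 were lower with Smarca4.4 than with Smarca4.6, with a median of -0.21.
In that comparison the highest gene was Msmo1 at 0.15 among the other synthesis enzymes, Lrp8 at 0.27 among the uptake genes and Mbtps2 at 0.28 for sensing. The highest and lowest genes were Abca1 at 0.56 and Nceh1 at -0.14 for efflux and storage. For the isoprenoid branch they were Ggps1 at 0.19 and Fnta at -0.15, and for fatty acid synthesis Me1 at 0.30 and Scd2 at -0.53.

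The 8 genes did not share a single profile. The distance of each gene from their mean profile, with every gene centred on its own mean over the 4 libraries, was 0.066 for Fdps, 0.071 for Cyp51, 0.077 for Lss and 0.11 for Sqle, below the median distance of 0.55 over 9592 genes with a mean of at least 3 log2 CPM. It was 1.02 for Dhcr7, 1.12 for Hmgcs1, 1.20 for Insig1 and 1.22 for Idi1. The members themselves enter that mean. The 5 other genes nearest to it were Celf1, Hspa14, Rabep2, Tmem41a and Slc39a10, at distances of 0.015 to 0.028. None is on the sterol and lipid lists, whose nearest gene was Pdss2 at rank 582, followed by Fdft1 at rank 757. Over 4 libraries many genes lie close to any shallow profile.

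Some reads may belong to overlapping genes, since the strand setting of the counting is not given in the sources used here. Lss overlaps 4930483K19Rik on the other strand, which was at 1.97 log2 CPM at day 0 and at 1.66, 1.496 and 2.02 for Nons, Smarca4.4 and Smarca4.6, well below Lss. GENCODE M21 also lists Gm48342 against Hmgcs1, Gm48574 against Idi1, Gm43738 and Gm22935 over Fdps, and Akap9 against the end of Cyp51. No annotated gene overlapped Sqle, Dhcr7 or Insig1.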

How the data were processed

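RNA-seq libraries (TruSeq RNA, 75 bp paired-end reads) were trimmed, aligned with HISAT2 to mm10 with FVB and CAST polymorphisms masked, and quantified in SeqMonk by the authors, who deposited log2 values of reads per 1000000 (RPM, here CPM) for 25965 genes in 4 libraries, per the labels and methods. The strand setting of the counting is not given in the sources used here. From the deposited log2 values, whole reads were recovered within a tolerance of 0.1 read (99.99% of values); a gene without reads is written as 0.9 read. Totals were 18599401, 45759793, 47143738 and 36495575 reads for day 0, Nons, Smarca4.4 and Smarca4.6.

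Groups followed the sample titles. Genes with a mean log2 CPM of at least 0 were kept (13264). Differences of log2 CPM were given with 95% exact (Clopper-Pearson) counting intervals, which do not cover variation between cultures. Without replicates no test was made. Sizes of 2-fold (day 6 against day 0) and of 25% higher or 20% lower (between day 6 libraries) were used to count genes. The named genes were the 8 members, Smarca4, Srebf1, Srebf2, Insig2, Abca1, X-linked list genes, the highest and lowest gene of each list and the 5 nearest profiles (Euclidean distance of centred log2 CPM). Some genes that this rule names are not reported here. Lipa, Npc1, Pou5f1 and the smooth muscle and mesenchymal markers were named after their values were seen. So were second values of genes that are extremes in another comparison. Members and lists were chosen with earlier results of these data known. Msmo1 is listed as Sc4mol. Alternatives were another centring (autosomal median, trimmed mean), a stricter filter, no filter and a pseudocount of 1 CPM. Scripts used Python 3.11.15, numpy 2.4.6, pandas 2.3.3 and scipy 1.17.1, and were tested on simulated data. Lengths came from GENCODE M21 and promoters from RefSeq, which held none for Sqle and Fdps.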

Additional observations from a re-analysis of the deposited data

How the results depend on the processing

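For the 8 genes, 56 of 60 summary values were counted as keeping their direction and size under the 5 alternatives. The stricter filter and no filter could not change them, because every member passes either filter. The 4 values that moved did so under the 2 centrings, with 2 moved and 10 kept in each. The count of members at least 25% higher with Smarca4.4 was 1 as reported and 0 after centring on the autosomal median or on the trimmed mean, because Idi1 lies next to that limit. The median of the members with Smarca4.6 was 0.20 as reported, 0.14 centred on the autosomal median and 0.13 on the trimmed mean. Centring on the autosomal median also takes 0.032 from the member median of 0.087 with Smarca4.4. For Smarca4.4 against Smarca4.6 it takes -0.033 from -0.076. Both shifts are sizeable beside such small medians, although neither was counted as a move. For the 6 other lists, 111 of 120 values were unchanged in direction and size, 7 took the opposite sign and 2 moved. The 7 belong to 4 medians, reported at -0.15 to 0.042. The efflux list was at 0.059 for Nons against day 0 with the stricter filter, at 0.0269 with Smarca4.6 without a filter, and, for Smarca4.4 against Smarca4.6, at 0.025 (autosomal median), 0.021 (trimmed mean) and 0.0129 (pseudocount), and it moved from -0.0083 to -0.13 with no filter. The uptake median for Nons against day 0 moved from -0.70 to -0.51 with the stricter filter. The isoprenoid list with Smarca4.6 was at -0.0192 (autosomal median) and -0.022 (trimmed mean). Of 1344 values of single genes, 61 moved by more than counting error. A filter cannot change the value of a single gene, so the 272 values without a filter and the 256 with the stricter filter could not move. Of the 61, 27 moved with centring on the autosomal median, 32 on the trimmed mean and 2 with the pseudocount. No paired analysis was possible because a group is a single library, and for that reason no replicate could be left out either. The day 0 library has the fewest reads, and a count of 0 there allows up to 0.161 CPM, far below the level of every member.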
